A study of Mus musculus with 9 samples.

Results

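The chaperonin CCT, also called TRiC, was described through the messenger RNA of its subunits in mouse neutrophils kept alone or with mammary tumour model cells. Its members were taken by symbol: Tcp1, Cct2, Cct3, Cct4, Cct5, Cct6a, Cct7 and Cct8, which made 8 of the 54532 genes in the count table. All 8 had enough counts to be tested, among 12012 genes that did. The neutrophils were taken from the marrow of wild type C57/B6 mice and spent 12 h in medium with 0.5% fetal bovine serum. They were either cultured alone, co-cultured with PyMT-M cells or co-cultured with PyMT-N cells, with 3 libraries in each of the 3 groups. PyMT stands for polyoma middle T antigen, an oncogene used to induce mammary tumours in mice, while M and N have meanings not given in the sources used here. After co-culture, neutrophils were isolated with a fluorescence-activated cell sorter. Whether the neutrophils kept alone were sorted is not given, so sorting and co-culture cannot be told apart in comparisons with them.

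CCT is a barrel of stacked rings in the cytosol, and each ring is built from 8 different subunits in a fixed order. Unfolded proteins enter the cavity and are released after the ring has bound and hydrolysed ATP. Actin and tubulin are its best known clients, which ties it to the cytoskeleton that neutrophils use to crawl, spread and engulf particles. Biochemical work places Cct2, Cct4 and Cct5 on the side of the ring that binds ATP tightly, and Cct3, Cct6a and Cct8 on the side that binds it weakly. Tcp1 and Cct7 lie between these sides. Clients reach CCT through the cochaperone prefoldin and through phosducin-like proteins, and Hsp70 and Hsp90 form the other main folding system of the cytosol.

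The subunits are paralogues with a nucleotide-binding loop. In most of them it reads glycine-aspartate-glycine-threonine-threonine, and its codons make the family tie visible in the transcripts. These codons occurred once in the main transcript of 7 of the 8 genes, each time within an open reading frame of 412 to 556 codons. The search allowed every codon of these amino acids and had 0 matches in the main Cct8 transcript, which therefore does not encode this exact series. Over all genes with a coding transcript in the GENCODE M21 annotation, 26 of 21901 (0.119%) held them. The stretches below are 5′ to 3′ from those GRCm38 transcripts, with the codons of the loop in capitals.
Tcp1: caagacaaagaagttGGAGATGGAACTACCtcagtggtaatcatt
Cct2: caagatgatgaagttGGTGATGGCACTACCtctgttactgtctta
Cct3: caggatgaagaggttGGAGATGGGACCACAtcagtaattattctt
Cct4: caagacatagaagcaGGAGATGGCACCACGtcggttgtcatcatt
Cct5: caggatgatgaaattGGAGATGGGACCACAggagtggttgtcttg
Cct6a: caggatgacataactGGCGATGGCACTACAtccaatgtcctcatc
Cct7: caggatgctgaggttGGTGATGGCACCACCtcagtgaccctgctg

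Outside such short stretches the genes are far apart in sequence, so that no subunit's main transcript matched another's at 90% identity or more over at least 100 bases. The genes lie on 8 different chromosomes. In GRCm38, Tcp1 spans chr17:12915701-12925067, Cct2 chr10:117051001-117063814, Cct3 chr3:88297116-88321767 and Cct4 chr11:22990519-23003780. Cct5 spans chr15:31590800-31601804, Cct6a chr5:129786998-129846371, Cct7 chr6:85451514-85468475 and Cct8 chr16:87483326-87495873.

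Because most subunits were called in the same direction, their start sites were searched for shared motifs, in RefSeq windows of GRCm38.p6 that cover 250 bases before each start site. The search found 9 windows for 7 of the genes, all but Cct4, and read both strands. Annotated exons covered all 250 bases of the Tcp1 and Cct6a windows, and 245 and 189 bases of the Cct5 windows. They covered 134 bases of the Cct3 window, 125 of the Cct8 window and 29 of the Cct7 window. The Cct2 windows held none, but 1 of them lies within the span of the gene. The GC box GGGCGG was in 8 of the 9 windows, against 32.7% of 32851 windows of all genes. It was at 1 or more start sites of all 7 genes, for which no share per gene was counted. The CCAAT box was in 4 windows, of Tcp1, Cct3, Cct6a and Cct7 (33.8% of all windows). The ETS motif CCGGAAG was in 2 windows, of Cct2 and Cct8 (6.91%). The heat shock element cores GAANNTTC and TTCNNGAA were in 1 window each, of Cct2 (6.69%) and Cct5 (7.17%). TGACG was in the Cct6a window (17.8%), and the E-box CACGTG was in none of the 9 windows (6.02%). The stretches printed lie before all annotated exons of the gene, with GC and CCAAT boxes of either strand in capitals. They are Cct3 at chr3:88297000-88297115 (plus strand), Cct7 at chr6:85451284-85451504 (plus), Cct2 at chr10:117063853-117064102 (minus) and Cct8 at chr16:87495874-87495998 (minus).
Cct3: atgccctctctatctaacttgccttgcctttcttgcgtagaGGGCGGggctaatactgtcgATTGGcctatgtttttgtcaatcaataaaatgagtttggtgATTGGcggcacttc
Cct7: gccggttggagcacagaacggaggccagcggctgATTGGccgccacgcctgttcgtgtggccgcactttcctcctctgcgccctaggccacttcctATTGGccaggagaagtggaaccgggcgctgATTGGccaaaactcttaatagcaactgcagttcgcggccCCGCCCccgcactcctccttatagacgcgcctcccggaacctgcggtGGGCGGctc
Cct2: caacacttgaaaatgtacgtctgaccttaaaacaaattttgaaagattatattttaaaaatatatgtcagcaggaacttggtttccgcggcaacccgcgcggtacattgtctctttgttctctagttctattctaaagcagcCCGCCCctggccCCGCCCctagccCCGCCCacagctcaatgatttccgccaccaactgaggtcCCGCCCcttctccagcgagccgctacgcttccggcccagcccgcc
Cct8: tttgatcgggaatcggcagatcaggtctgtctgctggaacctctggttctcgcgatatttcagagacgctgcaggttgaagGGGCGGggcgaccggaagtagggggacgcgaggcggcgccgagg

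The libraries held 1641049 to 4524563 counts, of which 1114 to 14809 fell in the 8 CCT genes, and the count of a single subunit in a library ran from 47 to 3041. Values are given as normalised CPM, in which counts are divided by a library size corrected with the trimmed mean of M values, and a count of 3 stood for 0.573 to 2.26 of these units. Alone replicate 3 stood apart: it was the shallowest library and had 1.75% of its counts in mitochondrial messenger RNA, against 0.180% to 0.769% in the others. Neutrophil markers were present in every library, at a summed 30061 to 43323 normalised CPM alone, 13877 to 17746 with PyMT-M cells and 15535 to 19474 with PyMT-N cells. Calls rest on an adjusted p under 0.05 in the quasi-likelihood test of edgeR. The labels call the 3 libraries of a group biological replicates and tie none to an animal. The p-values therefore set a group difference against the spread between libraries within groups. That spread was estimated from all 9 libraries and moderated across genes, and whether it covers different animals is not known.

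CCT transcripts were higher in both co-cultures than in neutrophils kept alone. Summed over the 8 subunits they came to 766, 792 and 840.2 normalised CPM in the libraries kept alone, 2844, 2827 and 2567 with PyMT-M cells, and 1679.6, 1901 and 1890.4 with PyMT-N cells. The 3 groups did not overlap, and the means stood at 3.43 times the level alone with PyMT-M cells and 2.28 times with PyMT-N cells. With PyMT-M cells 8 of the 8 subunits were called higher, against 28.1% of all tested genes called higher, and 0 were called lower, against 27.9%. With PyMT-N cells 7 of the 8 were called higher, against 29.4% of all tested genes, and 0 lower, against 23.6%. All 3 co-culture libraries lay above all 3 kept alone for 8 subunits with PyMT-M cells, against 31.4% of all tested genes, and for 7 with PyMT-N cells, against 33.4%. The median log2 fold change over the subunits was 2.06 with PyMT-M cells, where the median of all tested genes was -0.03. With PyMT-N cells it was 1.51, where that of all tested genes was 0.12. Both comparisons use the same 3 libraries kept alone.

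**Figure D1:**
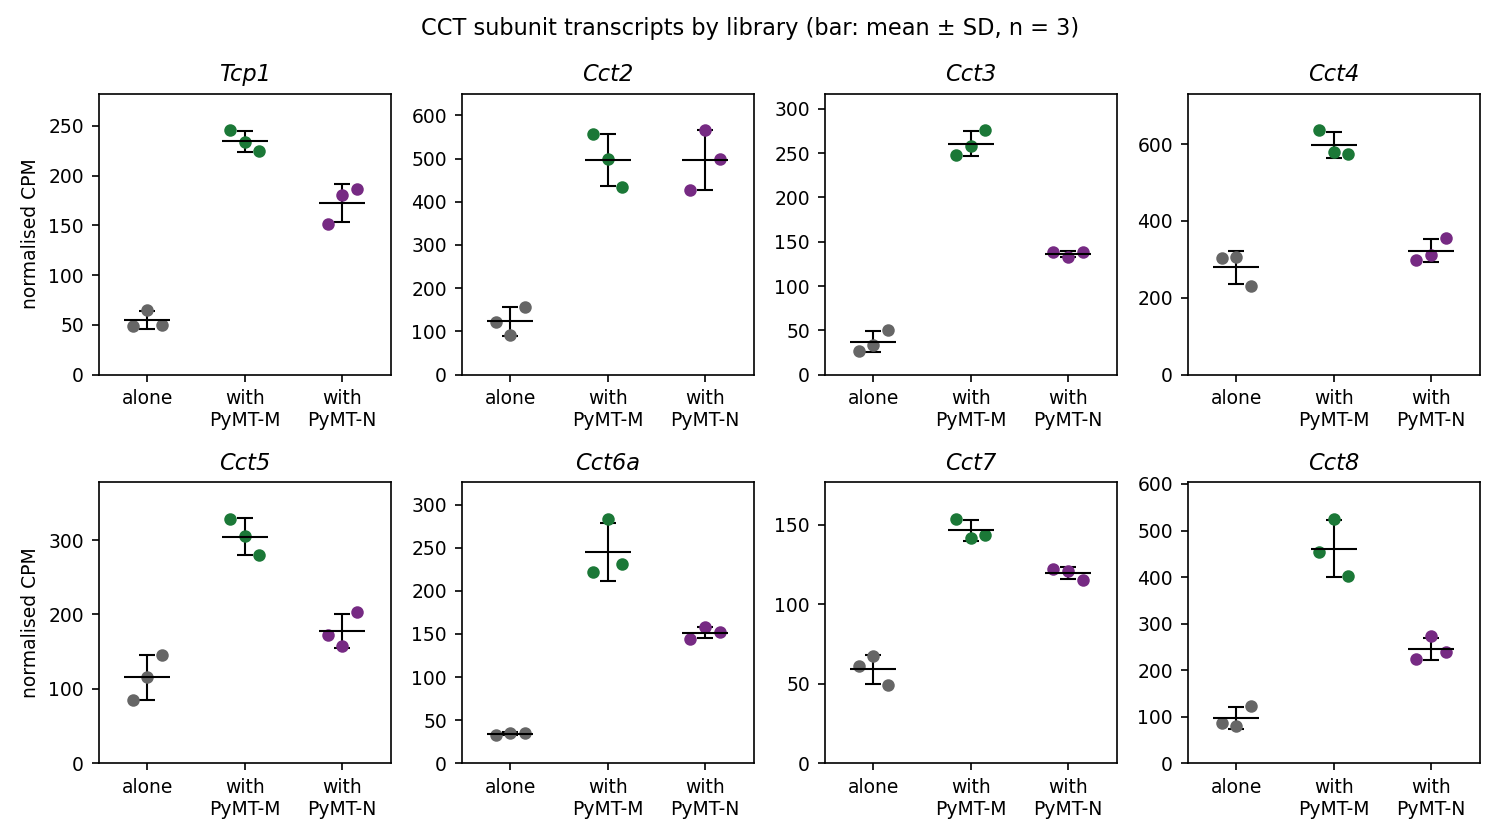
Normalised CPM of each CCT subunit (y axis, from 0, a scale per gene) in the 3 libraries of each group (points), with the mean and SD as bars. Every PyMT-M library lies above every library kept alone for all 8 genes, whereas Cct4 with PyMT-N cells, at 299 to 357, overlaps its level alone, at 230.0 to 305.

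Transcripts typical of other cells also differed between the groups, not all in the order of the CCT sum. The 16 epithelial markers summed to 5.28 to 21.7 normalised CPM alone, 64.7 to 92.1 with PyMT-M cells and 2270.2 to 3054 with PyMT-N cells. Of these markers 9 to 14 were at 0 in a library kept alone, 7 to 10 with PyMT-M cells and 1 with PyMT-N cells. Epcam, an epithelial adhesion molecule, was at 0 in all 3 libraries kept alone, at 1.92 ± 0.205 normalised CPM (SD, n = 3) with PyMT-M cells and at 190.3 ± 38.4 with PyMT-N cells. Krt8, a keratin of simple epithelia, was at 0.149 ± 0.257, 43.5 ± 5.50 and 378 ± 18.0 in the same order. With PyMT-M cells 3 of 15 tested epithelial markers were called higher (20%) and 1 lower (6.67%), against 28.1% and 27.9% of all tested genes. With PyMT-N cells all 15 were called higher, against 29.4%. The 16 mesenchymal markers summed to 1324 to 1632 alone, 3321 to 3928 with PyMT-M cells and 1929 to 2269 with PyMT-N cells, and 4 to 9 of them were at 0 in a library. Much of that sum was Vim, which leukocytes also express and which was singled out after its values were seen. Without it the other 15 markers summed to 50.8 to 157 alone, 977 to 1018 with PyMT-M cells and 1432 to 1802 with PyMT-N cells. Much of the PyMT-N sum was Fn1, at 33.3 ± 37.3 alone, 1.22 ± 0.948 with PyMT-M cells and 884 ± 137 with PyMT-N cells. Of 11 tested mesenchymal markers, 8 were called higher (72.7%) and 1 lower (9.09%) with PyMT-M cells, against 28.1% and 27.9%. With PyMT-N cells 6 were higher (54.5%) and 3 lower (27.3%), against 29.4% and 23.6%. From PyMT-M to PyMT-N co-culture 4 were higher (36.4%) and 6 lower (54.5%), against 19.1% and 15.5%. Col1a1, a fibrillar collagen chain, was at 6.15 ± 5.92 alone, 43.8 ± 12.9 with PyMT-M cells and 0.853 ± 0.299 with PyMT-N cells. Cald1, an actin-binding regulator of contraction, was at 1.72 ± 0.932, 143 ± 3.94 and 412 ± 11.7 in that order. Csf3r, the receptor for granulocyte colony-stimulating factor, was at 4999 ± 857 alone, 1894 ± 278 with PyMT-M cells and 2886 ± 302 with PyMT-N cells. S100a8, a calcium-binding protein abundant in neutrophils, was at 10562 ± 2321, 4071 ± 618 and 3655 ± 551. B cell markers summed to 569 to 1326 alone, 79.9 to 128 with PyMT-M cells and 15.1 to 19.5 with PyMT-N cells, and monocyte and macrophage markers to 1171 to 1626, 485 to 735 and 668 to 864. Markers of T and NK cells summed to at most 7.57 and erythroid markers to at most 0.382 in any library. The part of transcripts from other cells in the CCT differences was not tested. In such bulk samples, fewer cells of a type and less RNA per cell cannot be told apart.

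**Figure D2:**
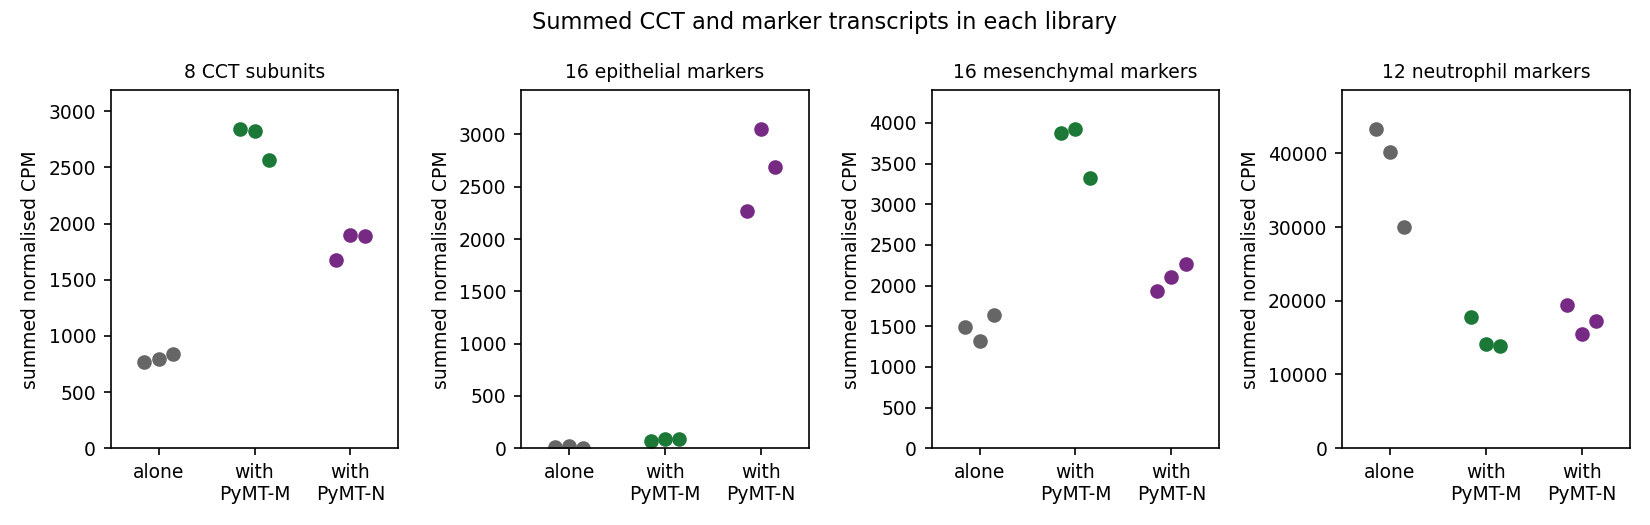
Summed normalised CPM (y axes, from 0) of the 8 CCT subunits and of the epithelial, mesenchymal and neutrophil marker lists in each library (points). The CCT sum is highest with PyMT-M cells, at 2567 to 2844, where epithelial markers stand at 64.7 to 92.1, and the epithelial sum is highest with PyMT-N cells, at 2270.2 to 3054.

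Among the subunits of tight ATP binding, Cct4 had the highest level alone per kilobase of transcript and the smallest log2 fold changes over alone. It stood at 304, 305 and 230.0 normalised CPM alone, 636, 580.4 and 575 with PyMT-M cells, and 299, 312 and 357 with PyMT-N cells. The PyMT-N libraries overlapped those kept alone, and the PyMT-M libraries lay above both. The log2 fold change with PyMT-N cells was 0.20 ± 0.17 (SE; edgeR, adjusted p = 0.325), and the interval of 2 SE ran from -0.13 to 0.53. With PyMT-M cells it was 1.09 ± 0.17 (edgeR, adjusted p = 7.03e-05). The PyMT-N value was called higher when libraries were scaled by their totals (0.49, adjusted p = 0.0247) or to pan-leukocyte genes (1.28, adjusted p = 1.31e-05).

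Cct2 stood at 121, 91.2 and 157 normalised CPM alone, 556, 498 and 435 with PyMT-M cells, and 427, 566 and 498 with PyMT-N cells. All 6 co-culture libraries lay above the 3 kept alone, and the co-cultures overlapped each other. The log2 fold change of Cct2 was 2.03 ± 0.21 in each co-culture (edgeR, adjusted p = 1.34e-06 with PyMT-N cells and 2.14e-06 with PyMT-M cells). Between the co-cultures the difference was 0.00 ± 0.19 on the log2 scale, with an interval of 2 SE from -0.38 to 0.39 (edgeR, adjusted p = 0.997).

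Cct5 stood at 84.7, 116 and 146 normalised CPM alone, 329, 305 and 279.8 with PyMT-M cells, and 172, 158 and 203 with PyMT-N cells. The 3 groups did not overlap, although the lowest PyMT-N library was close to the highest kept alone. Cct5 had a log2 fold change of 1.42 ± 0.21 with PyMT-M cells (edgeR, adjusted p = 4.85e-05) and 0.64 ± 0.21 with PyMT-N cells (adjusted p = 0.0173). The PyMT-N call rested on single libraries: without alone replicate 1 the value was 0.46 (adjusted p = 0.0914), and without PyMT-N replicate 3 it was 0.55 (adjusted p = 0.0770).

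Of the subunits of weak ATP binding, Cct3 stood at 27.2, 34.0 and 50.5 normalised CPM alone, 248, 258 and 276 with PyMT-M cells, and 138, 133 and 139 with PyMT-N cells. The groups were widely separated, and the PyMT-N libraries lay between the others. Its log2 fold change was 2.85 ± 0.22 with PyMT-M cells (edgeR, adjusted p = 1.94e-07) and 1.92 ± 0.22 with PyMT-N cells (adjusted p = 4.71e-06).

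Cct6a stood at 33.0, 34.7 and 35.4 normalised CPM alone, 222, 284 and 231 with PyMT-M cells, and 145, 158 and 152 with PyMT-N cells. The libraries kept alone lay close together, and the groups did not overlap. Its log2 fold change was 2.84 ± 0.20 with PyMT-M cells (edgeR, adjusted p = 8.21e-08) and 2.14 ± 0.20 with PyMT-N cells (adjusted p = 6.23e-07). Its exons overlap those of Psph, an enzyme of serine synthesis on the opposite strand, over 452 bases. Whether counting used strand was not given in the sources used here. The counts of both genes are therefore uncertain there. On its own strand Cct6a also shares 102 exonic bases with Snora15, which the strand of a read cannot separate. Psph was at 7.46 normalised CPM alone, 167 with PyMT-M cells and 108 with PyMT-N cells, and its 3610 counts came to 67.0% of those of Cct6a.

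Cct8 stood at 86.4, 78.8 and 123 normalised CPM alone, 454, 525 and 403 with PyMT-M cells, and 224, 272 and 239.8 with PyMT-N cells. The 3 groups did not overlap. Cct8 had a log2 fold change of 2.29 ± 0.20 with PyMT-M cells (edgeR, adjusted p = 6.25e-07) and 1.38 ± 0.20 with PyMT-N cells (adjusted p = 4.46e-05). It shares 192 exonic bases with Usp16, a deubiquitinase gene on the opposite strand, whose log2 fold changes were -0.26 with PyMT-M cells (adjusted p = 0.514) and -0.49 with PyMT-N cells (adjusted p = 0.223).

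Of the subunits between these sides, Tcp1, the first to be described, stood at 49.0, 65.4 and 49.8 normalised CPM alone. It stood at 246, 233 and 225 with PyMT-M cells and at 151, 181 and 186 with PyMT-N cells, again with no overlap between groups. Its log2 fold change was 2.08 ± 0.20 with PyMT-M cells (edgeR, adjusted p = 1.12e-06) and 1.64 ± 0.20 with PyMT-N cells (adjusted p = 6.77e-06). On the opposite strand its exons overlap those of Acat3 over 571 bases and of Mrpl18 over 141, and on its own strand those of Gm26130 over 138. It also matches Acat2, an enzyme of acetyl-CoA metabolism, at 98.7% over 445 bases, and the counts of these genes are uncertain where they share sequence. Acat2 was at 6.51 normalised CPM alone, 36.8 with PyMT-M cells and 34.2 with PyMT-N cells.

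Cct7 stood at 61.0, 67.3 and 49.0 normalised CPM alone, 154, 142 and 144 with PyMT-M cells, and 123, 121 and 115 with PyMT-N cells. The PyMT-N libraries lay below those with PyMT-M cells, and both above those kept alone. For Cct7 the log2 fold change was 1.29 ± 0.19 with PyMT-M cells (edgeR, adjusted p = 6.29e-05) and 1.00 ± 0.20 with PyMT-N cells (adjusted p = 5.77e-04). It shares 214 exonic bases with Pradc1 on the opposite strand, whose 182 counts came to 4.81% of those of Cct7.

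**Figure D3:**
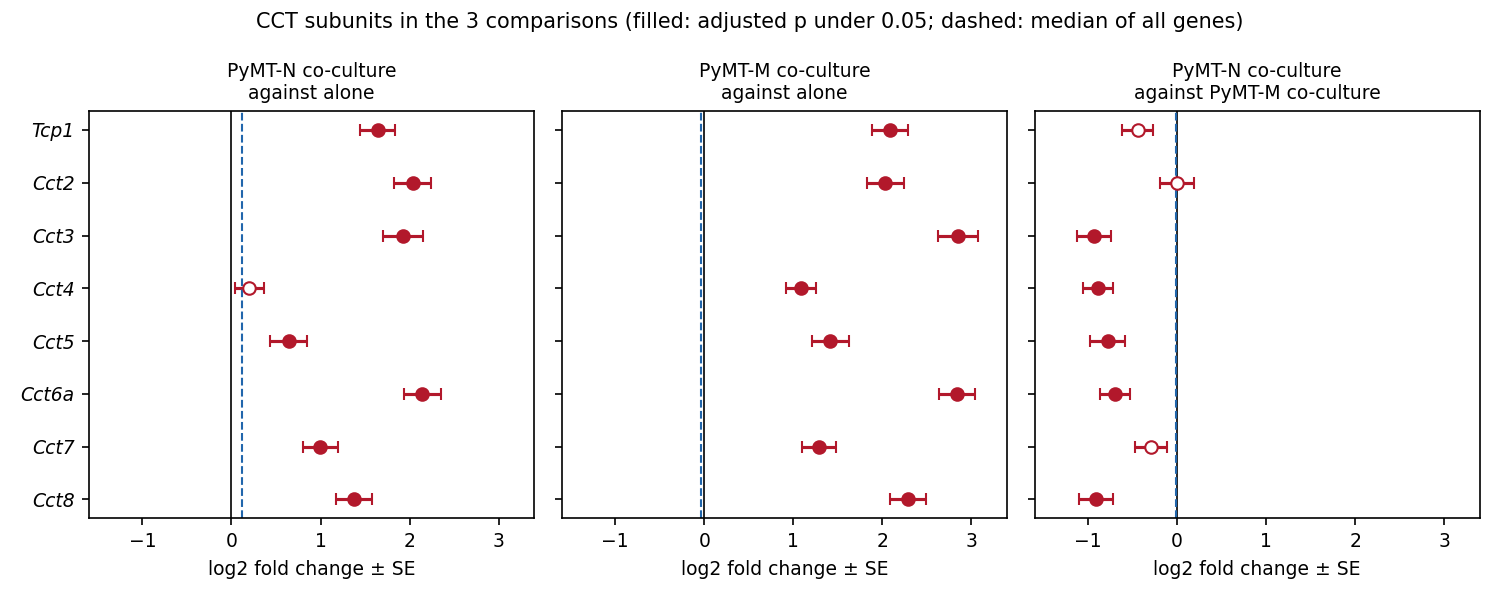
Log2 fold change (x axis) of each subunit with its SE in the 3 comparisons, filled where the adjusted p was under 0.05, with the median of all tested genes dashed. With PyMT-M cells the 8 values run from 1.09 to 2.85, with PyMT-N cells from 0.20 to 2.14, and between the co-cultures from -0.93 to 0.00.

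Of the 3 libraries kept alone, replicate 3 was the highest for Cct2, Cct3, Cct5, Cct6a and Cct8 and the lowest for Cct4 and Cct7. Replicate 1 was the lowest for Cct3, Cct5, Cct6a and Tcp1. Replicate 2 was the highest for Cct4, Cct7 and Tcp1 and the lowest for Cct2 and Cct8. Without alone replicate 3, 8 subunits were called higher with PyMT-M cells and 7 with PyMT-N cells.

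Between the co-cultures, CCT transcripts were lower with PyMT-N than with PyMT-M cells. The call was lower for 5 of the 8 subunits, against 15.5% of all tested genes called lower, and for none was it higher, against 19.1%. Cct3 differed by -0.93 ± 0.19 on the log2 scale (SE; edgeR, adjusted p = 0.00126) and Cct8 by -0.91 ± 0.19 (adjusted p = 0.00135). Cct4 differed by -0.89 ± 0.16 (edgeR, adjusted p = 5.53e-04), Cct5 by -0.78 ± 0.20 (adjusted p = 0.00618) and Cct6a by -0.70 ± 0.17 (adjusted p = 0.00526). For Tcp1 and Cct7 all PyMT-N libraries lay below all PyMT-M libraries without passing the test, at -0.44 ± 0.18 (edgeR, adjusted p = 0.0654) and -0.29 ± 0.18 (adjusted p = 0.225). Cct7 passed it with scaling by library totals (-0.51, adjusted p = 0.0401) and to pan-leukocyte genes (-0.72, adjusted p = 0.0136), and under each of these 7 of the 8 subunits were called lower. Libraries did not overlap, with PyMT-N below, for 7 of the 8 subunits, against 25.5% of all tested genes. The Tcp1 difference passed the threshold under 8 of the alternatives tried, DESeq2 (adjusted p = 0.0121) and the fit without alone replicate 3 (0.0190) among them, so it stood at the edge of the call. With a log2 fold change of 1 or more in size as a further condition, 0 of the 8 subunits were called.

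The size of all these differences depended on the scaling between libraries. With scaling by library totals, the median over all genes shifted by 0.47 with PyMT-M cells, 0.29 with PyMT-N cells and -0.21 between the co-cultures on the log2 scale. With scaling to 25 pan-leukocyte genes it shifted by 1.45, 1.07 and -0.42. Under the leukocyte scaling 7631 genes were called higher and 286 lower with PyMT-M cells, and 6837 higher and 899 lower with PyMT-N cells, against 3380 and 3352, and 3531 and 2830, under the main one. Between the co-cultures it gave 1455 genes higher and 3394 lower, against 2297 and 1863, so the background beside the 5 subunits called lower moved with it. The CCT medians under it were 3.55 with PyMT-M cells, 2.59 with PyMT-N cells and -1.16 between the co-cultures.

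The makeup of the CCT messages within a library does not depend on that scaling. Levels of different genes were compared per kilobase of the main transcript. Cct4 led alone at 113 ± 17.3 normalised CPM per kilobase (SD, n = 3), above Cct2 at 62.8 ± 16.8, Cct5 at 62.3 ± 16.4 and Cct8 at 40.1 ± 9.85, whose ranges overlapped from neighbour to neighbour. A lower set followed, with Cct7 at 24.2 ± 3.80, Tcp1 at 22.4 ± 3.78, Cct3 at 18.8 ± 6.07 and Cct6a at 14.01 ± 0.520, again with overlap between neighbours.

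With PyMT-M cells Cct2 at 253 ± 31.0 per kilobase and Cct4 at 240.4 ± 13.6 overlapped at the top. Cct8 at 192 ± 25.7 and Cct5 at 164 ± 13.2 overlapped below them. Cct3 at 132 ± 7.15 stood apart from its neighbours, Cct6a at 100.04 ± 13.7 overlapped Tcp1 at 95.9 ± 4.32, and Cct7 at 60.0 ± 2.64 came last.

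With PyMT-N cells Cct2 at 254 ± 35.3 per kilobase stood above Cct4 at 129.9 ± 12.2 without overlap. Cct8 at 103 ± 10.2 overlapped Cct5 at 96.0 ± 12.6, and Tcp1 at 70.6 ± 7.78 overlapped Cct3 at 69.1 ± 1.67. Cct6a at 61.8 ± 2.75 and Cct7 at 49.0 ± 1.57 stood apart from their neighbours. The most abundant subunit was 6.41 to 9.10 times the least abundant in the libraries kept alone, 3.93 to 4.502 times with PyMT-M cells and 4.34 to 5.81 times with PyMT-N cells. Some ranks rest on the length used: per kilobase of all annotated exons joined, Cct8 ranked above Cct4 in both co-cultures and Cct3 was lowest alone.

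As a share of the CCT total per kilobase, Cct4 came to 36.2%, 35.0% and 24.2% alone, 19.9%, 18.4% and 20.02% with PyMT-M cells, and 15.7%, 14.5% and 16.6% with PyMT-N cells. No library of one group reached the range of another. The mean share alone was 31.8% ± 6.62 (SD, n = 3), and it was 35.6% without alone replicate 3. Cct2 went the other way, at 18.3%, 13.3% and 20.9% alone, 22.1%, 19.99% and 19.2% with PyMT-M cells, and 28.5%, 33.2% and 29.4% with PyMT-N cells. For Cct2 the PyMT-N libraries stood above all others, and the PyMT-M libraries overlapped those kept alone. The ratio of Cct2 to Cct4 per kilobase was 0.506, 0.379 and 0.865 alone, 1.11, 1.09 and 0.958 with PyMT-M cells, and 1.81, 2.30 and 1.77 with PyMT-N cells. Cct3 held 5.21% ± 1.33 alone, against 10.7% ± 1.21 in PyMT-M and 8.33% ± 0.723 in PyMT-N co-culture. For Cct6a the shares were 3.93% ± 0.140, 8.08% ± 1.03 and 7.43% ± 0.256 in that order, and for both genes neither co-culture overlapped the libraries kept alone. Without overlap with the libraries kept alone, Tcp1 also rose (6.29% to 8.46%) and Cct5 fell (17.3% to 11.6%) with PyMT-N cells. With PyMT-M cells Cct8 rose (11.2% to 15.5%) and Cct7 fell (6.83% to 4.86%), again without overlap. Each of these overlapped the libraries kept alone in the other co-culture. Groups that do not overlap were thus common among the shares, which cannot move independently within a library. These shares are descriptions with no test. With the length of all annotated exons joined in place of the main transcript, the Cct4 share was 30.3% alone, 18.4% with PyMT-M cells and 14.5% with PyMT-N cells, and that of Cct2 was 21.5%, 25.1% and 36.5%.

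**Figure D4:**
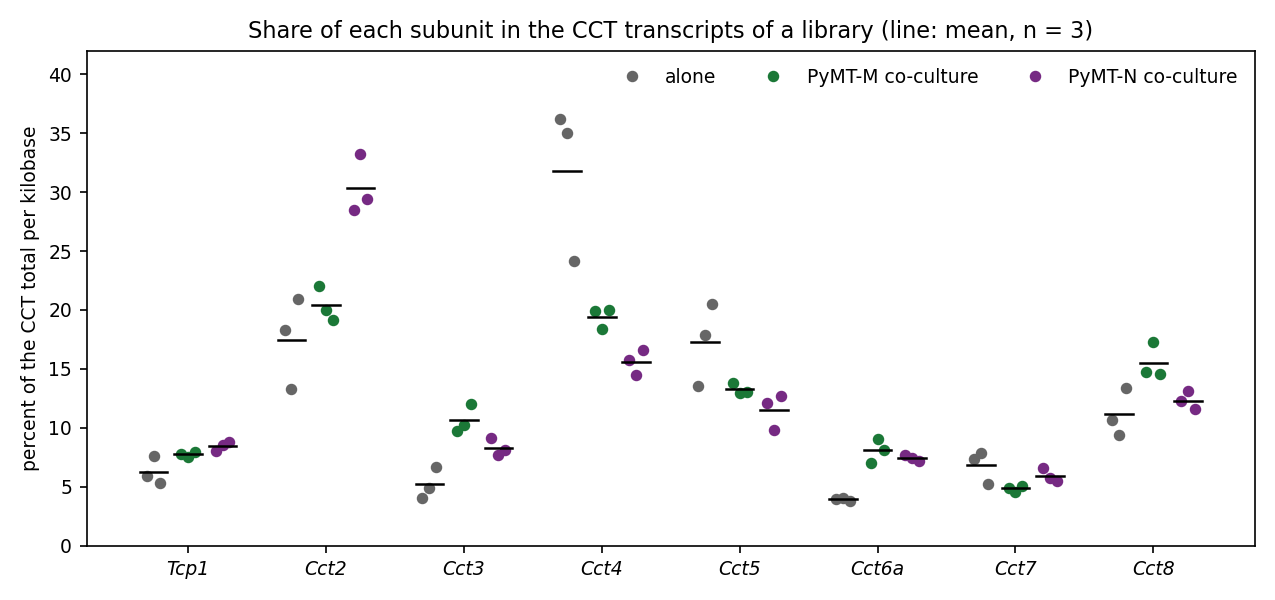
Share of each subunit in the CCT total per kilobase of main transcript (y axis, percent, from 0) in each library (points), with group means as lines. Cct4 lies between 24.2% and 36.2% alone and between 14.5% and 16.6% with PyMT-N cells, where Cct2 lies between 28.5% and 33.2%.

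Across the 9 libraries the profiles of the subunits were alike to different degrees. Against the mean of the other 7, with each gene's log2 values centred on its own mean, the root mean square difference was smallest for Tcp1, at 0.20, and Cct8, at 0.23. It was largest for Cct4, at 0.60, and lay between 0.37 and 0.45 for the rest. For 6194 candidate protein-coding genes the difference was taken against the mean of all 8 subunits. It was as small as that of Tcp1 or smaller for 15 of them, and as that of Cct8 for 29. For the middle 5 subunits the number was 205 to 382, and for Cct4 it was 826. These numbers compare differences from unlike references, because each subunit was left out of its own. The 5 closest candidates were Pdia6 (0.11), Eif2s2 (0.12), Rpn2 (0.12), Jagn1 (0.13) and Hsp90ab1 (0.14). Pdia6 is a disulfide isomerase of the endoplasmic reticulum, and stood at 57.2 ± 1.89 normalised CPM alone, 227 ± 20.1 with PyMT-M cells and 147 ± 2.60 with PyMT-N cells. Eif2s2, a subunit of a translation initiation factor, stood at 62.1 ± 4.97, 244 ± 16.03 and 154 ± 5.81, and Rpn2, of the oligosaccharyltransferase, at 39.9 ± 6.43, 136 ± 10.5 and 93.9 ± 6.04. Jagn1, an endoplasmic reticulum protein that neutrophils need, stood at 11.9 ± 1.502, 44.7 ± 3.29 and 26.6 ± 1.196. These points share libraries and depth, and the likeness says nothing of shared function.

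The counts for cochaperones that hand clients to CCT were small. Of 6 prefoldin subunits, 3 were called higher and 0 lower with PyMT-M cells, and 2 higher and 1 lower with PyMT-N cells, with median log2 fold changes of 0.95 and 0.68. Those called higher made 50% and 33.3%, against 28.1% and 29.4% of all tested genes, so the PyMT-N share was near the background. Those called lower made 0% and 16.7%, against 27.9% and 23.6%. The PyMT-N count fell to 1 without alone replicate 1 or 2 or PyMT-N replicate 2 or 3, and the PyMT-M count ran from 2 to 4 on leaving out 1 library. Pfdn1 rose by 1.97 ± 0.51 and 3.16 ± 0.46 in that order (SE; edgeR, adjusted p = 0.00444 and 4.07e-05). Pfdn4 rose by 2.12 ± 0.39 with PyMT-M cells (edgeR, adjusted p = 3.25e-04), and its value with PyMT-N cells was 1.00 ± 0.43 (adjusted p = 0.0629). Pfdn5 fell by 0.74 on the log2 scale with PyMT-N cells (edgeR, adjusted p = 0.00843), with a value of 0.34 under the leukocyte scaling. Of 3 phosducin-like cofactors, 0 were called higher with PyMT-M cells, against 28.1% of all tested genes. With PyMT-N cells 1 was called higher, and this 33.3% was near the background of 29.4%. The 1 called was Pdcl3, at 22.2 ± 2.76 normalised CPM alone and 40.1 ± 4.34 with PyMT-N cells, a log2 fold change of 0.84 ± 0.26 (edgeR, adjusted p = 0.0129). That call was lost without alone replicate 2 and at an adjusted p under 0.01.

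Of 8 tested genes of the R2TP and prefoldin-like complex, which assembles large complexes with Hsp90, 6 were called higher and 1 lower with PyMT-M cells, and 5 higher and 0 lower with PyMT-N cells. Their medians were 1.95 and 1.41, and those called higher made 75% and 62.5%, against 28.1% and 29.4% of all tested genes. The shares called lower were 12.5% and 0%, against 27.9% and 23.6%. The ATPase Ruvbl1 stood at 6.98 ± 4.43 normalised CPM alone, 77.4 ± 6.78 with PyMT-M cells and 75.3 ± 21.9 with PyMT-N cells, called higher in both (edgeR, adjusted p = 2.73e-06 and 2.18e-06). Uri1, a prefoldin-like scaffold, rose by 2.57 ± 0.28 and 1.68 ± 0.30 (edgeR, adjusted p = 3.73e-06 and 2.24e-04). It was lower with PyMT-N than with PyMT-M cells, by -0.89 ± 0.22 (adjusted p = 0.00537), as were Rpap3 and Pdrg1, so 3 of the 8 were called lower there (37.5%, against 15.5% of all tested genes).

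Among clients, 13 actin and tubulin genes gave 9 higher and 3 lower with PyMT-M cells and 8 higher and 3 lower with PyMT-N cells. Those called higher made 69.2% and 61.5%, against 28.1% and 29.4% of all tested genes. The 23.1% called lower in each were near the background of 27.9% and 23.6%. Actb, cytoplasmic beta-actin, stood at 11358 ± 608 normalised CPM alone, 4715 ± 663 with PyMT-M cells and 7705 ± 1014 with PyMT-N cells. Its log2 fold changes were -1.27 ± 0.14 and -0.56 ± 0.14 (edgeR, adjusted p = 5.43e-06 and 0.00404), and under the leukocyte scaling they turned to 0.22 and 0.51. The beta-tubulin Tubb5 rose by 1.67 ± 0.17 with PyMT-M cells and 0.81 ± 0.16 with PyMT-N cells (edgeR, adjusted p = 1.48e-06 and 7.01e-04). Tubb6, another beta-tubulin, went from 1.65 ± 1.04 normalised CPM alone to 60.4 ± 4.94 and 112 ± 14.6, and was called higher in both. The alpha-tubulin Tuba4a fell by 0.96 on the log2 scale with PyMT-N cells (edgeR, adjusted p = 3.84e-04), with a value of 0.12 under the leukocyte scaling. Between the co-cultures Tubb5 differed by -0.86 ± 0.16 (edgeR, adjusted p = 5.77e-04) and Actb by 0.71 ± 0.14 (adjusted p = 0.00117), so these clients differed in opposite directions.

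Of 12 other described clients, 4 were called higher in each co-culture, with 3 lower with PyMT-M cells and 2 lower with PyMT-N cells. The 33.3% called higher in each and the 25% and 16.7% called lower were near the shares of all tested genes, 28.1% and 29.4% higher and 27.9% and 23.6% lower. With PyMT-N cells 2 were called higher without alone replicate 2, and 11 under the leukocyte scaling. Cdc20, the activator of the anaphase-promoting complex, stood at 2.96 ± 1.91 normalised CPM alone, 25.7 ± 4.55 with PyMT-M cells and 16.3 ± 1.43 with PyMT-N cells, called higher in both (edgeR, adjusted p = 4.81e-05 and 7.79e-04). Rptor, the scaffold of mTOR complex 1, rose by 1.84 ± 0.31 and 1.499 ± 0.32 (edgeR, adjusted p = 1.79e-04 and 0.00121). The G protein beta subunit Gnb2 had log2 fold changes of -1.07 ± 0.16 and -0.42 ± 0.16 (edgeR, adjusted p = 6.33e-05 and 0.0392), which turned to 0.42 and 0.66 under the leukocyte scaling. Of 6 tubulin folding cofactors, 2 were called higher with PyMT-M cells and 1 with PyMT-N cells, and 1 was lower in each. Their shares of 33.3% and 16.7% called higher lay beside 28.1% and 29.4% of all tested genes, and the 16.7% called lower beside 27.9% and 23.6%. On leaving out 1 library the count called higher ran from 1 to 3 with PyMT-M cells and from 0 to 2 with PyMT-N cells. It fell to 1 with PyMT-M cells without alone replicate 3, PyMT-M replicate 2 or 3 or PyMT-N replicate 1, and to 0 with PyMT-N cells without alone replicate 2 or PyMT-N replicate 2. The lower one was Tbce, by -2.05 ± 0.31 and -1.59 ± 0.31 (edgeR, adjusted p = 7.12e-05 and 5.29e-04).

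**Figure D5:**
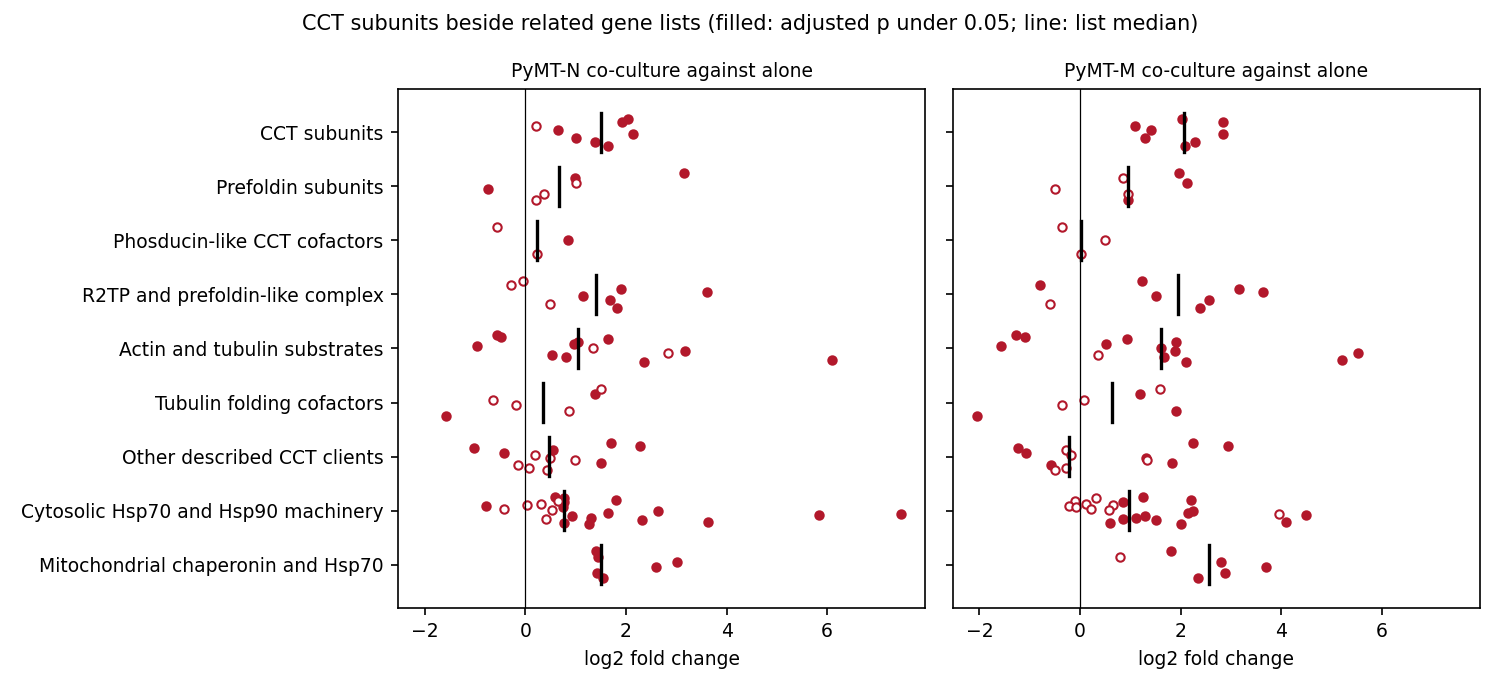
Log2 fold change (x axis, same range in both panels) of the CCT subunits and of the tested genes in 8 related lists, filled where the adjusted p was under 0.05, with the list median as a line. The CCT medians are 1.51 with PyMT-N and 2.06 with PyMT-M cells, beside 1.497 and 2.57 for the mitochondrial chaperonin and Hsp70 list and 0.77 and 0.98 for the cytosolic Hsp70 and Hsp90 list.

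In the other folding system of the cytosol, of 22 listed Hsp70 and Hsp90 genes 13 were called higher and 0 lower with PyMT-M cells, and 15 higher and 1 lower with PyMT-N cells. Those called higher made 59.1% and 68.2%, against 28.1% and 29.4% of all tested genes, and those called lower 0% and 4.55%, against 27.9% and 23.6%. Hsp90ab1, the constitutive Hsp90, stood at 569 ± 26.7 normalised CPM alone, 2514 ± 128 with PyMT-M cells and 1769 ± 239 with PyMT-N cells. Hsp90aa1, the inducible form, stood at 80.8 ± 18.9, 376 ± 35.2 and 492 ± 57.1, with a difference between the co-cultures of 0.39 ± 0.18 (edgeR, adjusted p = 0.107). Hsph1, a nucleotide exchange factor, rose by 4.11 ± 0.32 and 3.62 ± 0.33 (edgeR, adjusted p = 1.95e-07 and 3.45e-07). Hspa8, the constitutive Hsp70, rose by 0.85 ± 0.17 with PyMT-M cells (edgeR, adjusted p = 5.65e-04), and its value with PyMT-N cells was 0.40 ± 0.17 (adjusted p = 0.0527). Dnajb1, an Hsp40 partner, fell by 0.78 on the log2 scale with PyMT-N cells (edgeR, adjusted p = 0.00417), with a value of 0.29 under the leukocyte scaling. Hsf1, the heat shock transcription factor, stood at 10.2 ± 8.22, 13.5 ± 1.48 and 8.64 ± 0.389 and was called in no comparison.

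Of 6 genes of mitochondrial folding, 5 were called higher with PyMT-M cells and 6 with PyMT-N cells, against 28.1% and 29.4% of all tested genes. Only 2 of them, Hspd1 and Hspe1, belong to the mitochondrial chaperonin, a distant relative of CCT, and the others to the Hsp70 and Hsp90 type of chaperone or its cofactors. Hspd1, the ring subunit, stood at 37.8 ± 17.7 normalised CPM alone, 471 ± 38.0 with PyMT-M cells and 221 ± 9.13 with PyMT-N cells. Between the co-cultures it differed by -1.09 ± 0.22 (edgeR, adjusted p = 0.00112) and its lid Hspe1 by -1.47 ± 0.31 (adjusted p = 0.00168). Mitochondrial Hsp70, Hspa9, was at 264 ± 62.5 with PyMT-M cells and 303 ± 18.7 with PyMT-N cells, a difference of 0.20 ± 0.21 (adjusted p = 0.495). Cct6b, the testis paralogue of Cct6a, had 5 counts over all libraries, at most 3 in a library and 0 in each kept alone, and was not tested. Of the 2 CCT-like genes tested, Bbs12, of the ciliary chaperonin complex, was called higher with PyMT-M cells, at 7.14 ± 2.11 normalised CPM against 0.570 ± 0.690 alone (edgeR, adjusted p = 0.00168), and 0 were called with PyMT-N cells. These calls of 1 and 0 made 50% and 0%, against 28.1% and 29.4% of all tested genes called higher.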

How the data were processed

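RNA of 9 neutrophil libraries was sequenced from 150 pg of RNA each, per the labels' protocols. The authors deposited raw read counts per Ensembl gene, aligned with STAR to GRCm38 (mm10), per the submitters' processing notes. No counting tool, annotation or strand setting was given in the sources used here. Symbols matched 54409 of 54532 identifiers. Genes were filtered with filterByExpr (count minimum 10, total minimum 15), scaled with TMM factors (trimmed mean of M values) and tested by quasi-likelihood F tests in edgeR 4.0.16 under R 4.3.3. All 9 libraries entered 1 fit with a mean per group, and Benjamini-Hochberg adjustment ran over the 12012 tested genes of each comparison. The SE of a fold change is its size over the root of F.

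Main transcripts were APPRIS principal ones of GENCODE M21, or the longest for Cct6a, whose gene has no principal transcript and is typed as a processed transcript there. Similar sequences were searched with blastn 2.17.0. Promoter windows came from RefSeq (GRCm38.p6), and amino acid sequences were not used here.

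The 8 members, the 18 gene lists and the tests were chosen with earlier results of these data known. Genes named beside the subunits were, per list and comparison, up to 3 called members with the lowest p among those of the commoner direction and 1 of the opposite one, a few chaperones, clients and markers named in every case, and the 5 genes of closest profile; some that met the rule are not described. Partner genes that overlap a subunit stand outside the rule. Alternatives were 4 other scalings, 2 other filters, DESeq2 1.42.0, limma-voom (limma 3.58.1), edgeR without robust moderation, a replicate block, the compared groups only, 2 stricter thresholds and each library left out. The joined length of all exons was added after seeing the data. Replicate libraries differed beyond sampling noise (chi-square per degree of freedom of 6.71 or more). Scripts were tested on simulated data.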

Additional observations from a re-analysis of the deposited data

Results flagged for a closer look

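The rise over neutrophils kept alone differed between the co-cultures for 5 subunits by the edgeR test of that difference, which is the comparison of PyMT-N with PyMT-M co-culture. The PyMT-N minus PyMT-M difference in log2 fold change was -0.93 for Cct3, -0.89 for Cct4, -0.78 for Cct5, -0.70 for Cct6a and -0.91 for Cct8. In each of the 5 genes all 3 PyMT-N libraries lay below all 3 PyMT-M libraries. The 5 were chosen by the test on these same libraries, so this adds no support. Tcp1 and Cct7, which were not called, did not overlap either. Over all tested genes 15.5% were called lower and 25.5% did not overlap with PyMT-N below. For Cct2 the PyMT-N minus PyMT-M difference was 0.00 ± 0.19 (SE). Epithelial and mesenchymal markers also differed between the co-cultures, and their part in these differences was not tested.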

How the results depend on the processing

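Of 528 subunit fold changes under alternatives, 506 kept their direction and side of the threshold, 12 passed it and 10 no longer did, and none of the called ones changed sign. The number of subunits called higher ran from 6 to 7 with PyMT-N cells and stayed at 8 with PyMT-M cells when each library was left out, and 5 to 6 were called lower between the co-cultures. The medians then ran from 1.44 to 1.598, from 2.01 to 2.14 and from -0.79 to -0.68. Requiring a log2 fold change of 1 or more in size left 0 subunits lower between the co-cultures. The same condition left 5 called higher with PyMT-N cells, as Cct5 and Cct7 no longer passed. At an adjusted p under 0.01 Cct5 was not called with PyMT-N cells either. The median with PyMT-N cells was 1.81 with library totals and 2.59 with pan-leukocyte scaling. With PyMT-M cells it was 2.16 with relative log expression factors, 2.57 with library totals, 3.55 with pan-leukocyte scaling and 2.18 in a fit of the compared groups only. Between the co-cultures it was -0.83 with upper quartile factors, -0.95 with library totals and -1.16 with pan-leukocyte scaling. The cause of these shifts was not tested. The labels use the same replicate numbers in all 3 groups, and the count columns of same-numbered libraries also end in the same number. Neither says whether same-numbered libraries share a source. Same-numbered libraries of different groups had residual correlations of -0.078 to 0.029, and the other pairs -0.062 to 0.068. With 3 libraries in a group, such values cannot decide whether the numbers pair the libraries. With the replicate block, 7 subunits were called higher with PyMT-N cells, 8 with PyMT-M cells and 5 lower between the co-cultures, with medians of 1.51, 2.07 and -0.74. Of 1188 counts over related lists, 173 moved by more than 1.5 times, as did 8 of 132 counts over all genes. Depth limits the scarce genes: a count of 0 allows up to 2.26 normalised CPM in alone replicate 3.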
